A study of Mus musculus with 2 samples.

Results

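The alpha ring is the outer ring of the 20S proteasome, the barrel-shaped protease that degrades ubiquitin-tagged proteins. Its members here are the 7 genes Psma1 to Psma7, and all 7 were among the 22620 genes of the files. They were taken by gene symbol, though the choice was made with earlier results of these data known. They were followed across the cell classes of mouse brown adipose tissue in 2 libraries of single nuclei. The library labelled KO comes from mice in which, per the series design, Nfe2l1 was knocked out, and the library labelled Flox comes from mice whose genotype label gives no allele beyond that word. Both libraries are labelled as mice of 4 weeks, and neither was given a treatment label. Which promoter or recombinase made the knockout, which part of Nfe2l1 was removed, and whether a library holds 1 mouse or a pool could not be read from the labels.

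At both ends of the 20S barrel an alpha ring of 7 different subunits is stacked on a beta ring, which carries the proteolytic sites. The alpha ring does not cut proteins. Its subunits' tails close the entry pore, and its surface is the dock for the 19S regulatory cap and for other activators, so the ring sets what enters the barrel. Brown adipocytes burn fuel for heat and turn over much protein when they do, and the transcription factor NFE2L1, also called NRF1, is known to keep proteasome genes transcribed in these cells. The subunit names follow another numbering than the gene names: Psma6 encodes alpha1, Psma2 alpha2, Psma4 alpha3, Psma7 alpha4, Psma5 alpha5, Psma1 alpha6 and Psma3 alpha7.

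The KO library held 13030 barcodes and 43080725 UMIs (unique molecular identifiers, each counting 1 captured RNA molecule), and the Flox library 16145 barcodes and 46528077 UMIs. After filtering, 11570 KO nuclei with a median of 2648 UMIs and 13986 Flox nuclei with a median of 2254.5 UMIs were kept. Mitochondrial genes took 1.33% of the kept UMIs in KO and 0.585% in Flox, and the part of this in the results was not tested. The libraries shared 65 barcode sequences, 48 of them among kept nuclei. Nuclei were clustered and the clusters named from marker genes with the ending "-like". Clusters 1, 2 and 3 were adipocyte-like, with 7977 KO and 8501 Flox nuclei, and in them the 10 adipocyte markers, among them Adipoq and Ucp1, summed to 15322 CPM in KO and 14944 CPM in Flox. CPM here is the UMIs of a gene per 1000000 UMIs of the class. Since each genotype is a single library, genotypes were not tested against each other, no difference has a replicate check, and every interval is a 95% interval that covers counting error only. Ratios are log2 of CPM in KO over CPM in Flox, with 0.5 UMI added to each count, and a size of 1.5-fold is used as a fixed mark and not as a test.

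The targeted gene went against the label. Nfe2l1 had 8897 UMIs (313.7 CPM) among KO-labelled adipocyte-like nuclei and 3577 UMIs (132.9 CPM) among Flox-labelled ones, a ratio of 2.36 (2.27 to 2.46). The ratio was also above 1 in the unnamed cluster 8 (3.50, 2.79 to 4.44) and the unnamed cluster 10 (1.99, 1.36 to 2.94). In the other 4 compared classes the interval held 1, with ratios of 1.01 in pericyte/smooth muscle-like, 1.06 in fibroblast/progenitor-like, 1.17 in endothelial-like and 1.30 in macrophage/monocyte-like nuclei. The 3' UMIs of this chemistry count any polyadenylated transcript of the gene, so they do not check a deletion that leaves a transcript, and every direction below is between the libraries as labelled.

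In adipocyte-like nuclei the level of all 7 alpha ring genes was lower in KO. Their UMIs summed to 11661 in KO and 14169 in Flox, or 411 CPM (404 to 419) and 526 CPM (518 to 535), a log2 ratio of -0.36 (-0.39 to -0.32). The median log2 ratio of the 7 genes was -0.28, beside a median of -0.06 over the 12209 genes with at least 50 UMIs in this class, of which 59.1% were below 0. All 7 genes passed that minimum. Of the 7, 2 (Psma5 and Psma1) were at least 1.5-fold lower, where 8.33% of all genes were, and none was at least 1.5-fold higher, where 2.24% of all genes were. The plot of the members' levels shows the intervals of the libraries apart for each gene.

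**Figure D1:**
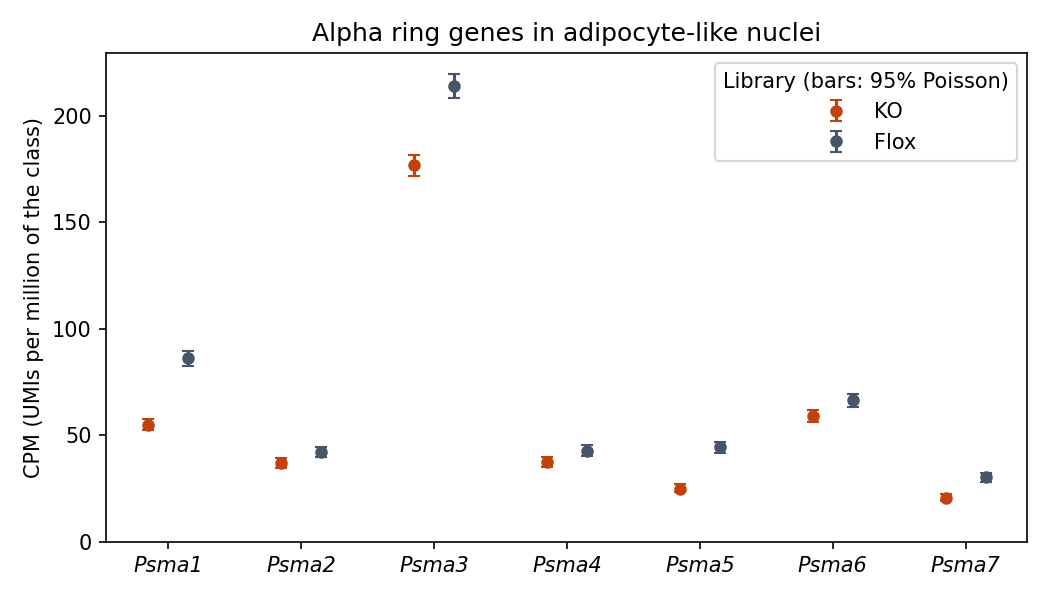
CPM of Psma1 to Psma7 in adipocyte-like nuclei, KO left and Flox right of each gene, 1 library each; bars are exact 95% Poisson intervals, for counting error only. All 7 genes lie lower in KO, with the widest relative gaps at Psma5 (25.0 and 44.4 CPM) and Psma1 (55.0 and 86.2 CPM).

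Psma5 stood furthest apart in the class as a whole. It encodes alpha5, a subunit whose pocket with alpha6 receives the tail of a 19S ATPase subunit in yeast and mammals. Adipocyte-like nuclei had 710 Psma5 UMIs (25.0 CPM) in KO and 1194 UMIs (44.4 CPM) in Flox, and the log2 ratio was -0.82 (-0.96 to -0.69). The gene lies on chr3:108256926-108279974, plus strand (mm10, GENCODE vM21), and spans 23.0 kb.

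Psma1, which encodes alpha6, the neighbour of alpha5 in the ring, was next. It had 1561 UMIs (55.0 CPM) in KO and 2321 UMIs (86.2 CPM) in Flox, with a log2 ratio of -0.65 (-0.74 to -0.55). It lies on chr7:114264606-114276118, minus strand, and spans 11.5 kb. Under TMM scaling, which sets library sizes from the bulk of the genes, its log2 ratio was -0.56 and it no longer passed 1.5-fold. The mark of 1.5-fold is 0.58 on the log2 scale, so Psma1 lay just inside it and Psma7 just outside. As a mean of CPM over nuclei, and after thinning each nucleus to 1000 UMIs, Psma7 passed it as well (-0.62 and -0.61).

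Psma7 encodes alpha4, whose human form is known to bind regulatory proteins such as the hypoxia factor HIF1A. It had 588 UMIs (20.7 CPM) in KO and 818 UMIs (30.4 CPM) in Flox, and its log2 ratio was -0.55 (-0.71 to -0.40). It is the shortest of the 7 genes, with 6.06 kb on chr2:180036374-180042433, minus strand.

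Psma3 encodes alpha7, whose carboxy-terminal tail reaches out of the ring and is known to bind other proteins. It carried the most UMIs of the 7 in this class, 43.0% of the summed UMIs in KO and 40.6% in Flox. It had 5010 UMIs (176.6 CPM) in KO and 5756 UMIs (213.8 CPM) in Flox, a log2 ratio of -0.28 (-0.33 to -0.22). The UMI level of a gene in nuclei can also depend on its length and structure, so the levels of the 7 genes are not ranked against each other. Psma3 spans 21.7 kb on chr12:70974621-70996347, plus strand. Without Psma3 the sum of the other 6 genes had a log2 ratio of -0.41, and without Psma1 and without Psma5 the sum had -0.31 and -0.32, so the sum stayed lower in KO without each of these 3 genes.

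Psma2, Psma4 and Psma6 differed less. Psma4 encodes alpha3, whose tail is the main bolt of the closed pore in yeast. It had 1066 UMIs (37.6 CPM) in KO and 1154 UMIs (42.9 CPM) in Flox, and its log2 ratio was -0.19 (-0.31 to -0.07). Psma2, which encodes alpha2, another pore-lining subunit, had 1052 UMIs (37.1 CPM) in KO and 1137 UMIs (42.2 CPM) in Flox, a log2 ratio of -0.19 (-0.31 to -0.07). Psma6, which encodes alpha1, had 1674 UMIs (59.0 CPM) in KO and 1789 UMIs (66.5 CPM) in Flox, a log2 ratio of -0.17 (-0.27 to -0.07). The intervals of these 3 genes lay wholly below 0 and did not reach those of Psma5, Psma1 and Psma7. Psma4 spans 7.24 kb on chr9:54950790-54958030, Psma2 spans 61.0 kb on chr13:14613240-14674236 and Psma6 spans 34.2 kb on chr12:55384222-55418454, all on the plus strand.

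Psma2 counts are uncertain, because the gene AW209491 lies inside its annotated span on the same strand (chr13:14630154-14639096). AW209491 had 14.4 CPM in KO and 12.7 CPM in Flox in adipocyte-like nuclei. An antisense gene also overlaps the start of Psma4 and another overlaps Psma3, and how reads on such overlaps were assigned is not stated in the labels or headers.

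Gene length moved with the library difference in this class. The median log2 ratio over all genes was 0.06 for the 2630 genes under 10 kb, -0.03 for those of 10 to 20 kb, -0.06 for those of 20 to 50 kb and -0.12 for the 3691 genes over 50 kb. Psma7 and Psma4, both under 10 kb, had log2 ratios of -0.55 and -0.19, and Psma2, over 50 kb, had -0.19. Each of the 7 genes was below the median of its own length class. The part of length in the members' ratios was not tested.

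The promoters of the 3 members furthest apart and of Psma4, one of those least apart, are shown because NFE2L1 is known to bind the antioxidant response element and because the members differed in the size of their ratios. The sequences are 300 bases each, from 250 bases before to 50 after a gene's start, from RefSeq on GRCm38.p6, the NCBI name of the mm10 assembly, and all 7 members had an entry, Psma6 with 2 starts. Capitals mark any match, on either strand, to 3 motifs: the antioxidant response element core TGACNNNGC, the NF-Y box CCAAT and the GC box GGGCGG. Matches of the GC box overlap each other in Psma4 and Psma7.
Psma5 (chr3:108256676-108256975, plus strand): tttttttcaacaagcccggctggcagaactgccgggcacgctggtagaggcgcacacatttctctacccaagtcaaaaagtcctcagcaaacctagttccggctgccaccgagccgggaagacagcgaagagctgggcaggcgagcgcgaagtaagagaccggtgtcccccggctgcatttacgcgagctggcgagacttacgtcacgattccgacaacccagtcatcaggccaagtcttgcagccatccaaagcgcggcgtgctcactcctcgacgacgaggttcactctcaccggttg
Psma1 (chr7:114276067-114276366, minus strand): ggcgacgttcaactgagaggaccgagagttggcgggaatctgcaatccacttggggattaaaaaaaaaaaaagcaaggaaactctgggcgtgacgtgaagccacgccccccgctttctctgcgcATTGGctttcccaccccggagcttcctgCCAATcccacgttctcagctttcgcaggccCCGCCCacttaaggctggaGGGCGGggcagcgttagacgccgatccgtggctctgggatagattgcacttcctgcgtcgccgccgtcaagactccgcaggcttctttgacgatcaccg
Psma7 (chr2:180042415-180042714, minus strand): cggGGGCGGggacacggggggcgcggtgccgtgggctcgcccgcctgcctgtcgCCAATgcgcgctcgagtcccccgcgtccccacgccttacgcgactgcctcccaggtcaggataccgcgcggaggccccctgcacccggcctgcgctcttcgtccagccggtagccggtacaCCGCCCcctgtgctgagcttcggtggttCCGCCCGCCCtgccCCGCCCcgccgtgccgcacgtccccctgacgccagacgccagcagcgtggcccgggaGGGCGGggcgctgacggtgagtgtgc
Psma4 (chr9:54950609-54950908, plus strand): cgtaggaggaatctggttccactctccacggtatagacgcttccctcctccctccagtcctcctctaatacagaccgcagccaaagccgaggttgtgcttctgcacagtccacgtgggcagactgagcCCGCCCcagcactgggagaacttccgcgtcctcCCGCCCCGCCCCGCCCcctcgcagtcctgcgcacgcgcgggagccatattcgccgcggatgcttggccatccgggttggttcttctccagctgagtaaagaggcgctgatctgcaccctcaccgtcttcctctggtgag

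The antioxidant response element core was in none of the 8 member windows and in 12.4% of all 32851 promoter windows. It was in 6 of 21 windows of the 20 beta ring and 19S cap genes with an entry. The NF-Y box was in 5 of the 8 member windows (Psma1, Psma2, Psma3, Psma6 and Psma7), against 37.4% of all windows. The window at the second start of Psma6 held no NF-Y box. The GC box was in 4 of the 8 member windows (Psma1, Psma2, Psma4 and Psma7), against 35.7% of all windows. Psma5, the member furthest apart between libraries, held none of the 3 motifs in its window. A match describes letters and not binding, and a window without one says nothing of sites elsewhere.

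The lower sum was seen in each of the adipocyte-like clusters. In cluster 1, with 4562 KO and 3512 Flox nuclei, the sum was 417 CPM in KO and 501 CPM in Flox, a log2 ratio of -0.26 (-0.32 to -0.20). In cluster 2, with 2929 and 2828 nuclei, it was 404 CPM in KO and 506 CPM in Flox, a log2 ratio of -0.32. In cluster 3, with 486 and 2161 nuclei and guanylate-binding protein genes such as Gbp2 and Gbp10 among its leading genes, it was 429 CPM in KO and 590 CPM in Flox, a log2 ratio of -0.46.

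The order of the members' ratios varied between these clusters. Psma5 had log2 ratios of -0.88, -0.65 and -0.39 in clusters 1, 2 and 3, whereas Psma3 had -0.13, -0.24 and -0.61. The levels behind the last value were 159.9 CPM in KO and 244.6 CPM in Flox. The counting intervals of Psma3 in clusters 1 (-0.22 to -0.03) and 3 (-0.79 to -0.44) lay apart, those of Psma5 overlapped, and neither difference was tested. Psma1 had -0.55, -0.63 and -0.73. Psma2 was at 45.8 CPM in both libraries in cluster 3. At least 1.5-fold lower were 1 member in cluster 1 (all genes 5.99%), 2 in cluster 2 (7.5%) and 2 in cluster 3 (9.14%). In cluster 8, which held 9 of the 10 adipocyte markers but stayed unnamed because the neuron marker Snap25 was among its leading genes, the sum was 397 CPM in KO and 477 CPM in Flox, a log2 ratio of -0.27 (-0.45 to -0.08).

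**Figure D2:**
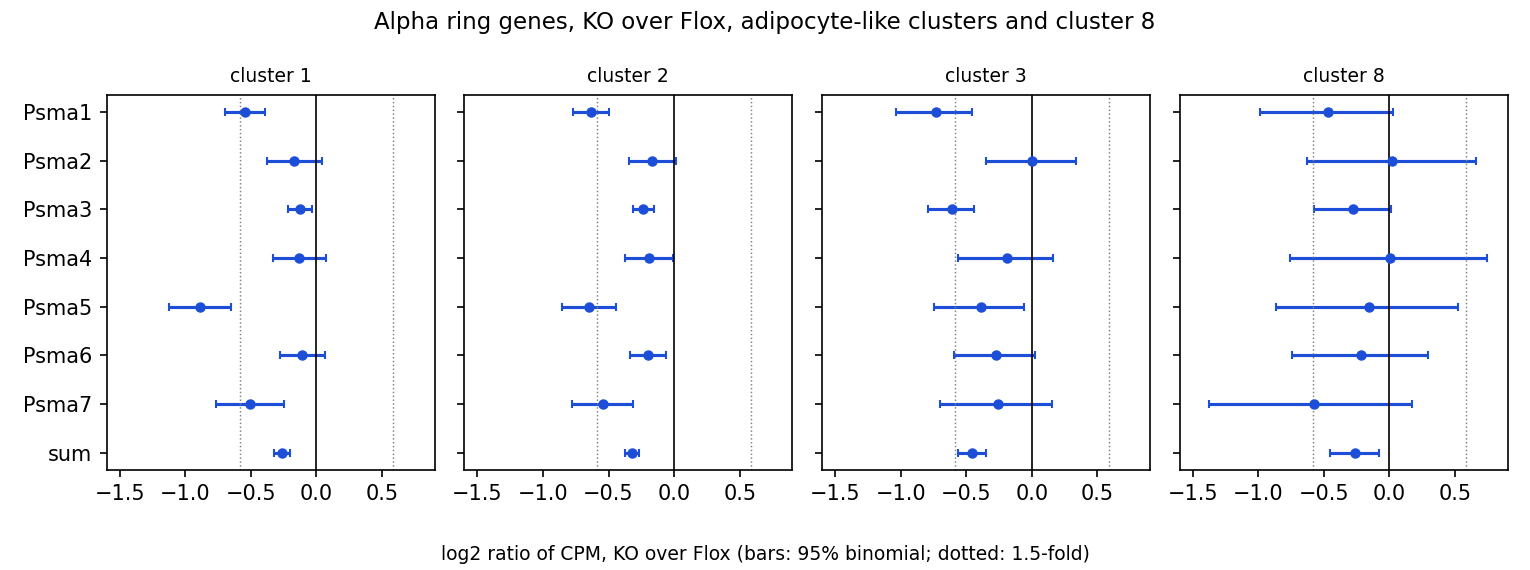
Log2 ratio of CPM, KO over Flox, of each alpha ring gene and their sum in adipocyte-like clusters 1, 2 and 3 and in cluster 8; bars are 95% binomial intervals (counting error only) and dotted lines mark 1.5-fold. The sum lies below 0 in all 4 panels, Psma5 is furthest left in clusters 1 and 2, and Psma1 is in cluster 3.

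Seen nucleus by nucleus, alpha ring UMIs were spread thinly. At full depth 67.8% of KO and 74.0% of Flox adipocyte-like nuclei had at least 1 UMI of any of the 7 genes, at median depths of 3091 and 2761 UMIs, and no nucleus had more than 13 such UMIs in KO or 12 in Flox. When each nucleus was thinned to 1000 UMIs, 32.7% of 7489 KO nuclei (31.7 to 33.8) and 41.1% of 8422 Flox nuclei (40.1 to 42.2) had one. Thinning left out 488 KO and 79 Flox nuclei that were shallower. For Psma5 the thinned share was 2.23% in KO and 4.32% in Flox. For Psma1 it was 5.58% in KO and 8.56% in Flox, and for Psma7 2.10% in KO and 3.28% in Flox. For Psma3 it was 15.8% in KO and 19.1% in Flox. Every cell type needs the proteasome, so no class that lacks these genes could serve as a background for the shares.

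Markers of other cell types also differed between the adipocyte-like nuclei of the libraries. The 10 skeletal muscle markers were all lower in KO and summed to 72.7 CPM in KO and 176.4 CPM in Flox, the 10 macrophage/monocyte markers were all lower and summed to 220 and 269 CPM, and 9 of 10 endothelial markers were lower, with sums of 33.2 CPM in KO and 57.0 CPM in Flox. Not every list was lower: the mast sum was 52.2 CPM in KO and 47.4 CPM in Flox. The fibroblast/progenitor sum was 191.1 CPM in KO and 181.9 CPM in Flox, though 7 of its 10 markers were lower in KO. The muscle sums were 0.130% in KO and 0.346% in Flox of those in skeletal muscle-like nuclei. The same share of the muscle-like alpha ring level comes to 0.839 CPM in KO and 2.47 CPM in Flox, beside alpha ring sums of 411 and 526 CPM. For the macrophage/monocyte markers the corresponding values were 4.01 CPM in KO and 5.90 CPM in Flox.

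Outside the adipocytes, the alpha ring was measured in every class. The skeletal muscle-like nuclei had the highest summed level in both libraries, 644 CPM in KO (77 nuclei) and 714 CPM in Flox (314 nuclei), and macrophage/monocyte-like nuclei had the lowest, 288 CPM in KO and 350 CPM in Flox. Between these, the KO order was Schwann-like (466 CPM), pericyte/smooth muscle-like (457), cluster 10 (437), cluster 13 (420), adipocyte-like (411), cluster 8 (397), endothelial-like (380) and fibroblast/progenitor-like (340). The Flox order was cluster 13 (634 CPM), adipocyte-like (526), endothelial-like (490), cluster 8 (477), cluster 10 (454), Schwann-like (416), pericyte/smooth muscle-like (407) and fibroblast/progenitor-like (373). In KO all neighbours in this order had overlapping counting intervals, and in Flox all but adipocyte-like over endothelial-like did. The adipocyte-like class thus held rank 6 of 10 in KO and rank 3 of 10 in Flox. Cluster 10, with T and B cell genes, and cluster 13, with haemoglobin genes, stayed unnamed.

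**Figure D3:**
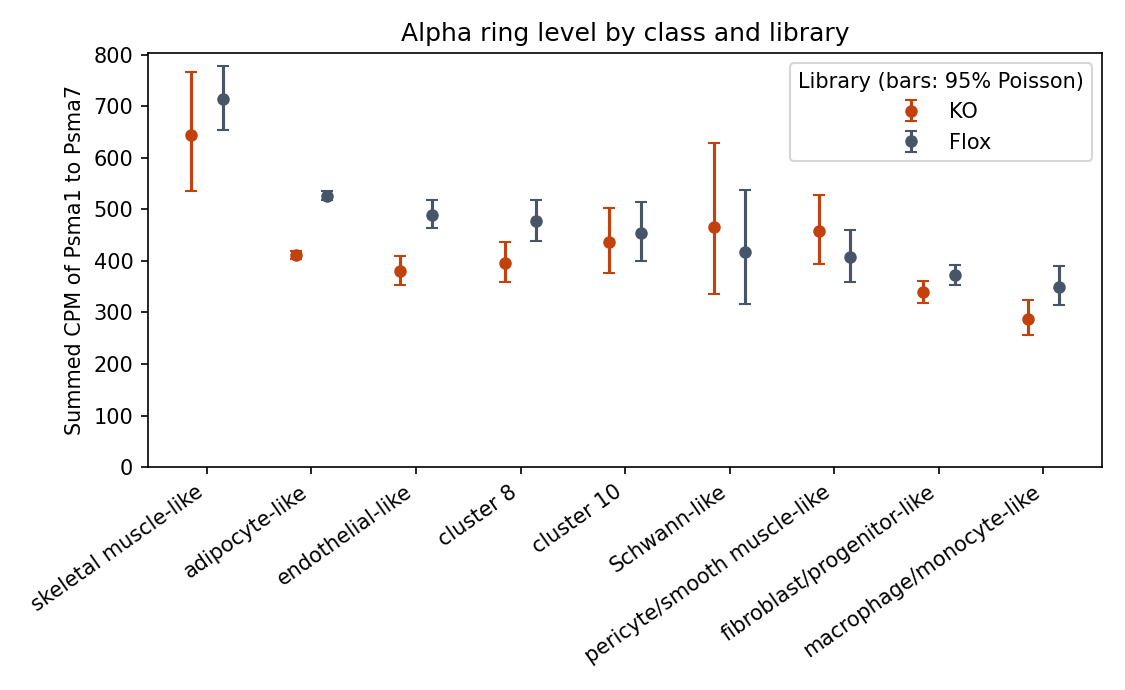
Summed CPM of Psma1 to Psma7 in 9 classes or clusters, KO left and Flox right, 1 library each; bars are exact 95% Poisson intervals (counting error only). The intervals of the libraries lie apart in adipocyte-like, endothelial-like and cluster 8 nuclei and overlap in the other 6.

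In endothelial-like nuclei (950 KO, 1488 Flox) the sum was also lower in KO. It was 380 CPM in KO and 490 CPM in Flox, a log2 ratio of -0.37 (-0.50 to -0.23), and all 7 members were lower. Taken as a mean of CPM over nuclei, which gives shallow nuclei the same weight as deep ones, the log2 ratio was -0.21. The median log2 ratio of the members was -0.39, beside -0.05 over 8805 genes, of which 56.2% were below 0. The lowest ratios here were those of Psma4 and Psma7. Psma4 had 40 UMIs (20.7 CPM) in KO and 97 UMIs (37.3 CPM) in Flox, a log2 ratio of -0.84 (-1.42 to -0.30). Psma7 had 46.1 CPM in KO and 69.6 CPM in Flox, a log2 ratio of -0.59 (-0.98 to -0.22). Psma5 had 31.6 CPM in KO and 34.6 CPM in Flox, and its interval ran from -0.62 to 0.35. These 2 members at least 1.5-fold lower stand beside 9.38% of all genes in this class, and none was at least 1.5-fold higher, where 2.82% of all genes were. Both are genes under 10 kb, of which 15.3% were at least 1.5-fold lower in this class, with a median log2 ratio of -0.12. Among genes over 50 kb these values were 7.36% and -0.02. The part of length in the endothelial-like ratios was not tested.

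Adipocyte markers in these nuclei moved in the same direction. All 10 adipocyte markers were lower in endothelial-like nuclei of KO, with sums of 5588 CPM in KO and 6358 CPM in Flox, which is 36.5% and 42.5% of their level in the adipocyte-like nuclei of the same library. That share of the adipocyte-like alpha ring level comes to 149.96 CPM in KO and 223.9 CPM in Flox, beside the sums of 380 and 490 CPM. Most of the marker sums was 1 gene, Pparg, with 3900 CPM in KO and 3985 CPM in Flox. The size of the shares thus rests largely on Pparg, whereas the gap between the sums of the libraries lay mostly in the other markers. Whether the Pparg UMIs here came from adipocytes was not tested. The 10 skeletal muscle markers were also all lower, at 107.8 CPM in KO and 360.8 CPM in Flox. The part of this RNA in the endothelial-like result was not tested.

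In fibroblast/progenitor-like nuclei (1440 KO, 2083 Flox) the sum was 340 CPM in KO and 373 CPM in Flox, a log2 ratio of -0.13 (-0.25 to -0.02). The 7 members lay between -0.19 (Psma3) and 0.08 (Psma7), and none was 1.5-fold apart, where 3.64% of 10011 genes were lower and 2.93% higher by that size. Psma5, furthest apart in adipocytes, had 23.9 CPM in KO and 27.1 CPM in Flox, a log2 ratio of -0.18 (-0.64 to 0.28). Adipocyte markers in these nuclei summed to 1539 CPM in KO and 2055 CPM in Flox, or 10.0% and 13.8% of their adipocyte-like level. Of the 10 markers 6 were lower and 4 higher in KO, and Pparg alone had 559 CPM in KO and 1087 CPM in Flox. The part of this RNA in the small difference was not tested.

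In macrophage/monocyte-like nuclei (365 KO, 499 Flox) the sum was 288 CPM in KO and 350 CPM in Flox, a log2 ratio of -0.28 (-0.51 to -0.05). Of the 6 members with at least 50 UMIs, 2 were at least 1.5-fold lower (all genes 4.55%) and none higher (4.56%). Psma1 had 28 UMIs in KO and 50 in Flox, a log2 ratio of -0.84 (-1.57 to -0.15), and Psma2 had 19 UMIs in KO and 35 in Flox, with -0.87 (-1.78 to -0.05). Psma7 had 34 UMIs in each library. Adipocyte markers summed to 1558 CPM in KO and 1725 CPM in Flox, or 10.2% and 11.5% of their adipocyte-like level. Of the 10 markers 7 were lower and 3 higher in KO, and Pparg alone had 537 CPM in KO and 780 CPM in Flox. The part of this RNA was not tested.

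In pericyte/smooth muscle-like nuclei (213 KO, 344 Flox) the sum was 457 CPM in KO and 407 CPM in Flox, a log2 ratio of 0.17 (-0.11 to 0.45), so a difference was not detectable at this depth. Only Psma3 and Psma6 reached 50 UMIs. Psma3 had 101 UMIs (243 CPM) in KO and 94 UMIs (152 CPM) in Flox, a log2 ratio of 0.68 (0.26 to 1.10), in a class where 5.03% of the 4449 genes measured reached 1.5-fold upward and 7.55% downward. Psma4 had 7 UMIs in KO and 32 in Flox, below the minimum. In this class 9 of 10 adipocyte markers were lower in KO, with sums of 3575 CPM in KO and 4362 CPM in Flox, or 23.3% and 29.2% of their adipocyte-like level. That share of the adipocyte-like alpha ring level comes to 95.9 CPM in KO and 153.6 CPM in Flox. It rests largely on 1 gene, because Pparg alone had 2384 CPM in KO and 2789 CPM in Flox. Whether the Pparg UMIs here came from adipocytes was not tested. Of the macrophage/monocyte markers 9 of 10 were lower too, with 137.2 CPM in KO and 229.4 CPM in Flox, as were 9 of 10 skeletal muscle markers, with 192.6 CPM in KO and 378.1 CPM in Flox. The part of this RNA was not tested. The plot of ratios by class shows how the intervals widen as the classes get smaller.

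**Figure D4:**
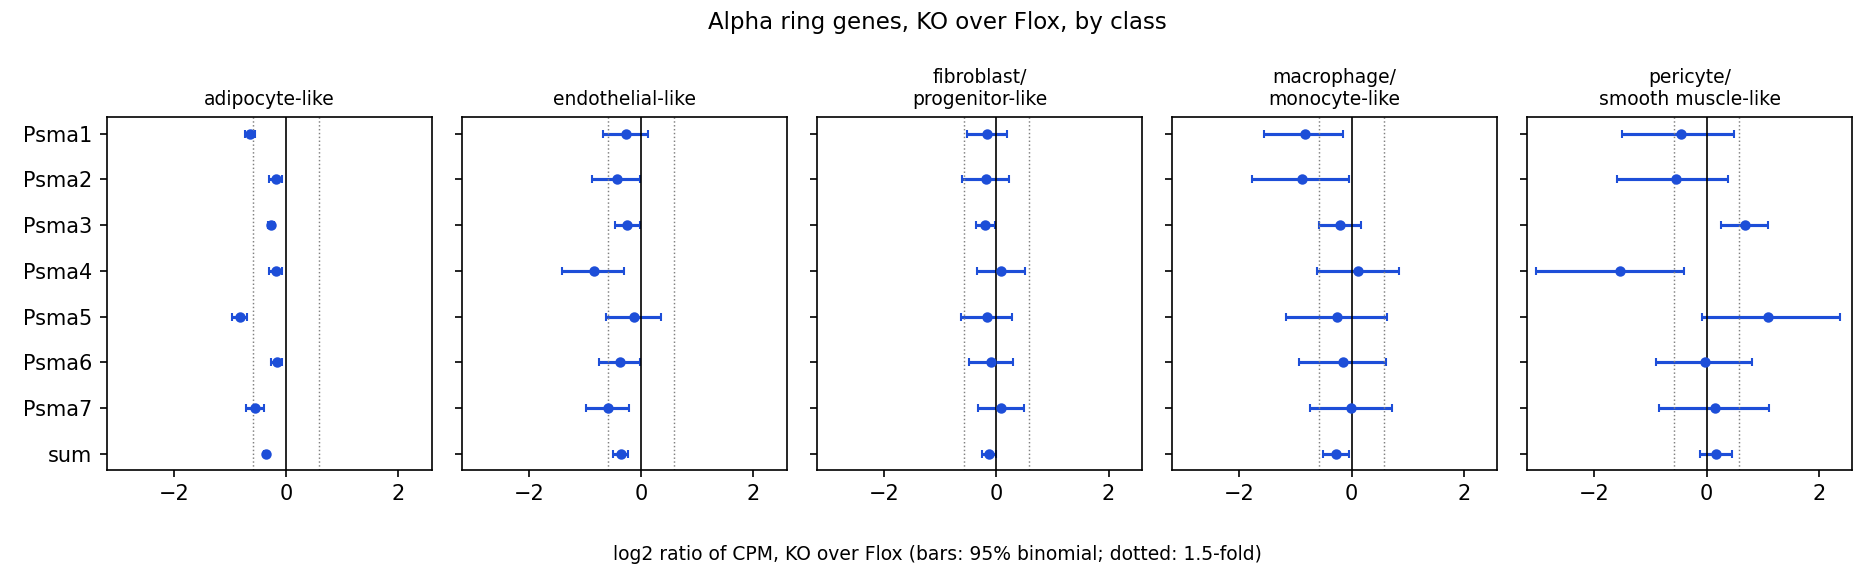
Log2 ratio of CPM, KO over Flox, of each alpha ring gene and their sum in the 5 classes that held 100 nuclei or more per library; bars are 95% binomial intervals (counting error only) and dotted lines mark 1.5-fold. The sum lies at -0.36 in adipocyte-like and -0.37 in endothelial-like nuclei, nearer to 0 in fibroblast/progenitor-like nuclei (-0.13), and at 0.17 in pericyte/smooth muscle-like nuclei.

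Skeletal muscle-like nuclei, with too few KO nuclei to compare, had Psma2 at 27 UMIs (139.0 CPM) in KO and 47 UMIs (63.4 CPM) in Flox, and Psma3 at 242 CPM in KO and 335 CPM in Flox. In cluster 10 Psma5 had 5 UMIs in KO and 28 in Flox, while Psma6 had 36 and 29. These are single low counts and are given as values.

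Across the 5 compared classes and both libraries, 10 points in all, single members followed the sum to unequal degrees. Pearson's r with the sum, which holds the member itself, was 0.91 for Psma6, 0.83 for Psma3, 0.78 for Psma2, 0.72 for Psma1 and 0.71 for Psma5, but 0.24 for Psma7 and 0.06 for Psma4. Of the 7, only Psma3 reached 50 UMIs at every point. Among 1465 genes ranked by the same measure, those most like the sum were Pde4a (0.85), a cyclic AMP phosphodiesterase, Pparg (0.84), the adipocyte transcription factor, Acyp2 (0.84), Itpr1 (0.83), an endoplasmic reticulum calcium channel, and Acaa2 (0.80), an enzyme of mitochondrial fatty acid oxidation. Points of 1 class share cells, and points of 1 library share its depth and free RNA, so these values are a description.

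The rest of the proteasome did not differ by 1 common size in adipocyte-like nuclei, where 8.33% of all genes were at least 1.5-fold lower. The beta ring, which holds the catalytic sites, was mixed: 4 of 7 genes were below 0, none was 1.5-fold apart, and the median log2 ratio was -0.13. Psmb1 (-0.49) and Psmb2 (-0.31) were lowest in KO, whereas Psmb6, the caspase-like subunit, had 15.9 CPM in KO and 12.1 CPM in Flox (0.39, 0.18 to 0.60), and Psmb4 had 22.6 CPM in KO and 18.4 CPM in Flox (0.30, 0.13 to 0.47).

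Of the 5 genes for assembly of the 20S core 3 were below 0, beside 59.1% of all genes, and none was 1.5-fold apart, with a median of -0.11. Psmg1, of the chaperone pair on which the alpha ring forms, had a log2 ratio of 0.02, and Psmg3, of the second chaperone pair, had 0.44 (231 UMIs in KO, 161 in Flox). Psmg4, its partner, had -0.22, and Pomp, which helps the beta ring close on the alpha ring, had -0.22.

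The 19S cap, which binds ubiquitin and threads proteins through the alpha ring's pore, was further apart. Its 6 ATPase ring genes, whose tails dock in the alpha ring's pockets, were all below 0 with a median of -0.53, and 2 were at least 1.5-fold lower. Psmc4 had 19.3 CPM in KO and 31.3 CPM in Flox (-0.70), and Psmc2 had 18.8 CPM in KO and 28.9 CPM in Flox (-0.62). Of 13 scaffold and lid genes 11 were below 0 and 8 at least 1.5-fold lower, beside 59.1% and 8.33% of all genes, with a median of -0.62. Psmd1, the large scaffold, had 68.8 CPM in KO and 152.5 CPM in Flox (-1.15, -1.23 to -1.07). Psmd14, the deubiquitinase, had 70.1 CPM in KO and 128.5 CPM in Flox (-0.87). Sem1 (0.22) and Psmd8 (0.06) were above 0. Of 3 measured cap assembly genes 2 were below 0, beside 59.1% of all genes, with a median of -0.12.

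The 6 genes of other proteins that dock on the alpha ring went both ways: 3 were below 0, none was 1.5-fold apart, and the median was -0.03. Ecpas, an adaptor of core and cap, had 383.7 CPM in KO and 476.7 CPM in Flox (-0.31, -0.35 to -0.28), and Psme4, of the nuclear activator PA200, had 342 CPM in KO and 406 CPM in Flox (-0.25, -0.29 to -0.21). Psme1, of the activator PA28 known from antigen processing, had 66.7 CPM in KO and 57.1 CPM in Flox (0.22, 0.13 to 0.32), and Psme3 had 0.15. The 3 immunoproteasome genes had a median of 0.13, from Psmb9 (-0.11) to Psmb8 (0.13) and Psmb10 (0.49). Of 6 genes that handle NFE2L1 protein itself 4 were below 0 and 1 was at least 1.5-fold lower, beside 59.1% and 8.33% of all genes. The latter was Vcp, the ATPase that pulls NFE2L1 out of the endoplasmic reticulum, with 80.5 CPM in KO and 126.9 CPM in Flox (-0.66). Ubxn4 had -0.29, Sel1l 0.20 and Syvn1 0.34.

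**Figure D5:**
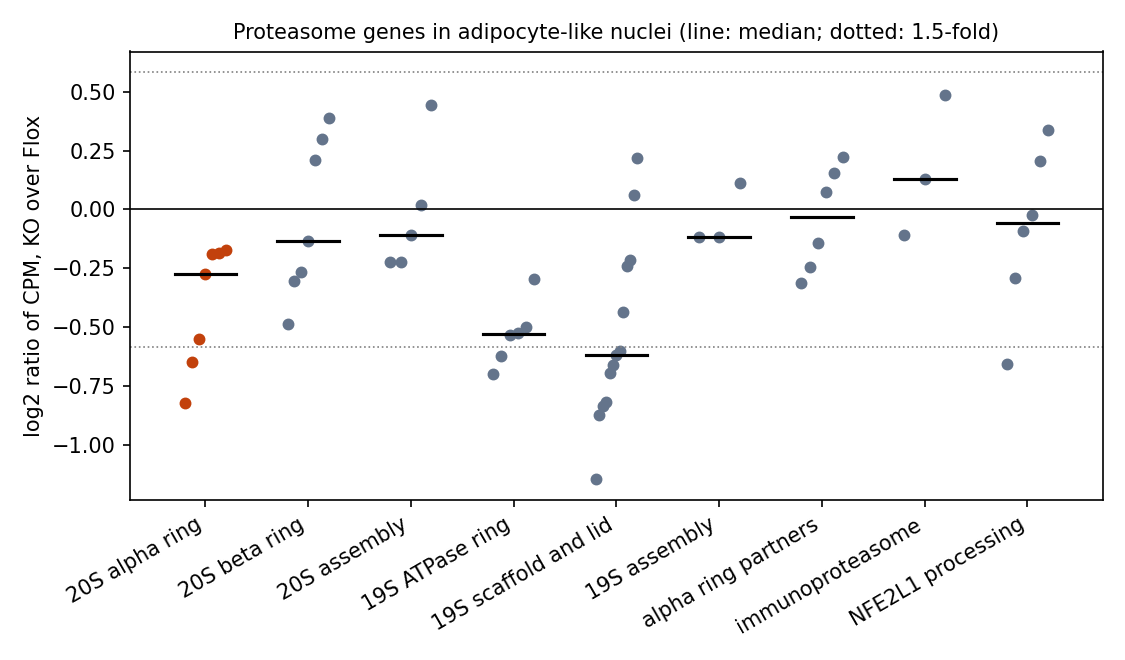
Log2 ratio of CPM, KO over Flox, in adipocyte-like nuclei for every measured gene of 9 proteasome lists, 1 point a gene with the median as a line and dotted lines at 1.5-fold. The alpha ring (coloured) lies wholly below 0 with a median of -0.28, between the beta ring (-0.13) and the 2 lists of the 19S cap (-0.53 and -0.62).

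In endothelial-like nuclei the same lists lay closer together. The medians were -0.39 for the alpha ring, -0.23 for the beta ring, -0.33 for the ATPase ring and -0.23 for the scaffold and lid, where 2 of 13 genes were at least 1.5-fold lower, beside 9.38% of all genes. Of the immunoproteasome genes Psmb10 was at least 1.5-fold higher, with 64.3 CPM in KO and 42.7 CPM in Flox (0.59, 0.21 to 0.97), beside 2.82% of all genes. In fibroblast/progenitor-like nuclei the medians were -0.16, -0.05, 0.02 and -0.04 in the same order, and none of the 13 scaffold and lid genes was 1.5-fold lower, beside 3.64% of all genes. Psmc5, of the ATPase ring, was at least 1.5-fold higher there, with 26.3 CPM in KO and 15.6 CPM in Flox (0.76, 0.25 to 1.28), beside 2.93% of all genes. Whether the classes differ from each other was not tested.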

How the data were processed

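The deposited values are UMI counts per gene and barcode, whole numbers that the authors produced on mm10 per the submitters' processing notes, by Cell Ranger 5.0.0 as the file headers record. The 10x 3' chemistry captures polyadenylated RNA. The annotation, intron counting and strand setting are not stated there. Every barcode had at least 500 UMIs.

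Barcodes under 200 genes or over 10% mitochondrial UMIs were removed (129 KO, 99 Flox). The highest Scrublet doublet scores (scanpy 1.11.5) were removed at 0.8% per 1000 barcodes (1331 KO, 2060 Flox). Counts scaled to 10000 gave 2000 variable genes, 30 principal components, 15 neighbours and Leiden clusters at resolution 0.5. A cluster took a class name from its marker list where at least 3 markers and at least 20 CPM each supported it and its top 10 genes named no other class. The rebuilt names may differ from the study's. UMIs were summed per class and library. Intervals are exact Poisson (CPM), binomial (ratios) and Clopper-Pearson (shares), all at 95%. The counting was run on simulated Poisson counts, which hold no variation between animals, nuclei or libraries, so that run covers counting error only. Gene positions came from GENCODE vM21 for 22565 genes. TMM factors came from edgeR 4.0.16. No test between genotypes was run.

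The members and gene lists were chosen with earlier results of these data known. Members are named wherever measured, and of each other list at most the 2 genes furthest apart in each direction. The depth bins, the sum with cluster 8 and the sum without shared barcodes were added after seeing the data.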

Additional observations from a re-analysis of the deposited data

Results flagged for a closer look

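Psma3 in pericyte/smooth muscle-like nuclei had a log2 ratio of 0.68, with 243 CPM in KO (101 UMIs) and 152 CPM in Flox (94 UMIs). It drew attention because the direction was opposite to that in 3 other classes, where the gene's interval lay below 0: adipocyte-like (-0.28), endothelial-like (-0.25) and fibroblast/progenitor-like nuclei (-0.19). The difference between classes was not tested, and each class is 1 library per genotype.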

How the results depend on the processing

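The alpha ring sum in adipocyte-like nuclei was lower in KO under all 25 alternatives, with log2 ratios from -0.46 to -0.26 around -0.36. It was -0.27 with TMM factors, -0.40 after thinning to 1000 UMIs, -0.26 in cluster 1 alone, -0.46 in cluster 3 alone, -0.31 without Psma1, -0.41 without Psma3, -0.32 without Psma5 and -0.42 in nuclei under 2000 UMIs, a bin added after seeing the data. The members' median was -0.19 with TMM factors and -0.17 in cluster 1 alone, where 1 member in place of 2 was at least 1.5-fold lower under each, whereas 3 were as a mean of CPM over nuclei and after thinning to 1000 UMIs, where Psma7 was at -0.62 and -0.61. Psma2 in cluster 3 alone was at 0.0047 in place of -0.19. Psma5 was at -0.65 in cluster 2 alone and -0.39 in cluster 3 alone, in place of -0.82. As a mean over clusters 1, 2 and 3, Psma5 and Psma1 were both at -0.64. The endothelial-like sum was -0.21 as a mean of CPM over nuclei in place of -0.37. Where these values moved, the cause was not tested. Of all 190 alternative values, 167 kept their direction and moved within the counting interval or count limit. No paired analysis was possible because each genotype has 1 library, and leaving out a replicate was not possible for the same reason. Depth limits the smaller classes: in pericyte/smooth muscle-like nuclei the interval of the sum spans 0.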
